A study of Mus musculus with 42 samples.

Results

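The genes described are 10 well-known targets of NRF2, the transcription factor that drives the antioxidant response: Hmox1, Srxn1, Slc7a11, Gclc, Gclm, Gsr, Txnrd1, Prdx1, Txn1 and Nqo1. They were chosen by name, and all 10 were found among the 13479 gene symbols with a poly(A) site (PAS) in the 3′READS libraries and among the 12364 genes of the RNA-seq libraries. A PAS was given to a gene when it lay within the gene's annotated span on mm9 or up to 4000 nt past its end, on the same strand and before the next gene. The study measured 3′ ends and gene expression in mouse cells under sodium arsenite, an oxidative and proteotoxic stressor, and in recovery from it. 3′READS sequences the 3′ ends of polyadenylated RNA, and the reads of a PAS count the transcripts that end at it.

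Non-treated NIH3T3 cells (NT), an embryonic fibroblast line, were compared with NIH3T3 cells given 250 µM arsenite for 1 h (AS) and with cells kept without arsenite afterwards for a recovery of 4 h (RC4), 8 h (RC8), 12 h (RC12) or 24 h (RC24). Total RNA had 3 NT libraries, 3 AS libraries and 1 library of each recovery time, and the NT and AS libraries were numbered replicates 1, 2 and 4. In another set, RNA was labelled with 50 µM 4-thiouridine for 1 h and split into the labelled, newly made fraction (4sU) and the unlabelled flow-through (Ft), with 1 library each of NT at 0 h, AS, NT at 4 h and RC4. The same 4 conditions were measured by RNA-seq. RNA bound to an antibody against TIA1, a stress granule protein, was sequenced beside its cytoplasmic input, with 2 libraries each in NT and AS. C2C12 cells, a myoblast line, were used as proliferating myoblasts (MB) and as differentiated myotubes (MT), with 2 untreated total RNA libraries of each and 1 cytoplasmic library of each of the 4 stress conditions. Where a condition had an NT library at 0 h and at 4 h, they served as the 2 untreated replicates, and the lone AS and RC4 libraries were assumed to vary like the others. Nothing in the labels says that replicates of a group were separate cultures, so p-values measure the spread between these libraries. In the sets with NT at 0 h and at 4 h, this spread came only from the NT pairs, which also differ in time. In RNA-seq that left 1 residual degree of freedom, so its p-values draw on a spread estimated across genes.

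The 3′READS libraries held 1048335 to 6974664 PAS reads and the RNA-seq libraries 17137579 to 25194062 reads. Levels are given as normalized RPM, the reads of a gene per 1000000 reads of its library after median-ratio scaling within each experiment, and they are not comparable between experiments. A PAS with fewer than 5 reads in a library is not listed in the data, so a gene without reads is called not listed. Myotube markers and Myod1 set C2C12 cells apart from NIH3T3 cells, whereas the fibroblast list did not separate the lines and the whole myoblast list did not separate MT from NIH3T3. Myog, Ckm and Myl1 summed with Myh3, Acta1 and Tnnt3 to 6680 to 10500 RPM in MT, 74.4 to 255 in MB, where the level was nearly all Acta1, and 0 to 10.9 in NIH3T3. Myod1, a myoblast marker, had 8.63 to 25.8 RPM in MB and 14.2 to 38.4 in MT and was not listed in NIH3T3. With Myf5, Vim, Ccnb1 and Mki67 it summed to 5450 to 12800 RPM in MB, 1590 to 4080 in MT and 453 to 5290 in NIH3T3. Of these Myf5 was also not listed in NIH3T3, while Vim, Ccnb1 and Mki67 were listed in every NIH3T3 library. The fibroblast list, Col1a1, Col1a2, Col3a1, Vim, Pdgfrb and Thy1, summed to 1410 to 9360 in NIH3T3 cells, 5480 to 13100 in MB and 6100 to 9450 in MT, although Thy1 was not listed in C2C12 cells. The leukocyte marker Ptprc was not listed in any library, and 5 leukocyte and endothelial markers together reached 0 to 36.1 RPM.

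In resting cells NRF2 is held by KEAP1 and degraded. Electrophiles and trivalent arsenic modify cysteines of KEAP1, NRF2 accumulates, pairs with a small MAF protein and binds antioxidant response elements, from which it displaces the repressor BACH1. Its targets include enzymes of heme breakdown, glutathione synthesis, the thioredoxin and peroxiredoxin cycle, and quinone detoxification.

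The promoter windows were searched for these elements, since the members were examined as genes that share a regulator. Promoters from 250 bases before to 50 bases after the start were taken from RefSeq on GRCm38.p6, where 7 of the 10 members matched. The core TGACNNNGC, searched on both strands, was found in 12.4% of the 32851 promoters and in 4 of the 7 members. The stricter TGANTCAGC, which can overlap it, was in 1.19% of promoters and in 2 of the 7 members. The shares count promoter windows, whereas a member counts when any of its starts has a match, so they are not directly comparable. A chromosome that holds no member was left out of the search. In the windows below the matched element is in capitals, and each is written 5′ to 3′ on the strand that holds the match.
Srxn1, chr2:152105469-152105498, plus strand, 45 bases before the start: aaattcacccTGAGTCAGCggccgggcgcg
Srxn1, chr2:152105541-152105570, minus strand, after the start: tgtctcactcTGACCTAGCtgcccactgcc
Prdx1, chr4:116685455-116685484, minus strand, 133 bases before the start: ctacgggggaTGACTCAGCgctttccctgg
Gclm, chr3:122245412-122245441, minus strand, 134 bases before the start: tcgtgagagtTGACGGTGCgcccgggagcg
Txnrd1, chr10:82859103-82859132, minus strand, 92 bases before 1 of its 3 starts: cgtgtcagaaTGACAAAGCaaaaatccagt
The Prdx1 window matched both motifs, and the other 3 matched promoters, of Slc7a11, Txn1 and Nqo1, held neither. A match is a stretch of letters and not a bound site.

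After 1 h of arsenite Hmox1 had the largest log2 fold change of the members that were listed in NT cells, in RNA-seq, in both fractions and in both C2C12 states, and most other members were not yet called. After 4 h of recovery 9 of the 10 members were higher than in NT cells in RNA-seq and in the 4sU fraction, and 8 of 10 in the Ft fraction. For comparison, 28.5% of all 10677 genes tested were called higher at RC4 in RNA-seq, 12.9% of 10534 genes in the 4sU fraction and 13.9% in the Ft fraction (edgeR quasi-likelihood test, Benjamini-Hochberg adjusted p under 0.05). At AS, 2 members were higher and 1 lower in RNA-seq against 4.45% and 1.17% of all genes, 3 were higher in the 4sU fraction against 2.13% (3.32% of genes were called there in either direction), and 1 was higher in the Ft fraction against 0.389%. Reads of the 10 members made up 0.0985% and 0.106% of the RNA-seq reads in the NT libraries, 0.211% in AS and 1.15% in RC4, and Hmox1 alone gave 0.755% in RC4.

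**Figure D1:**
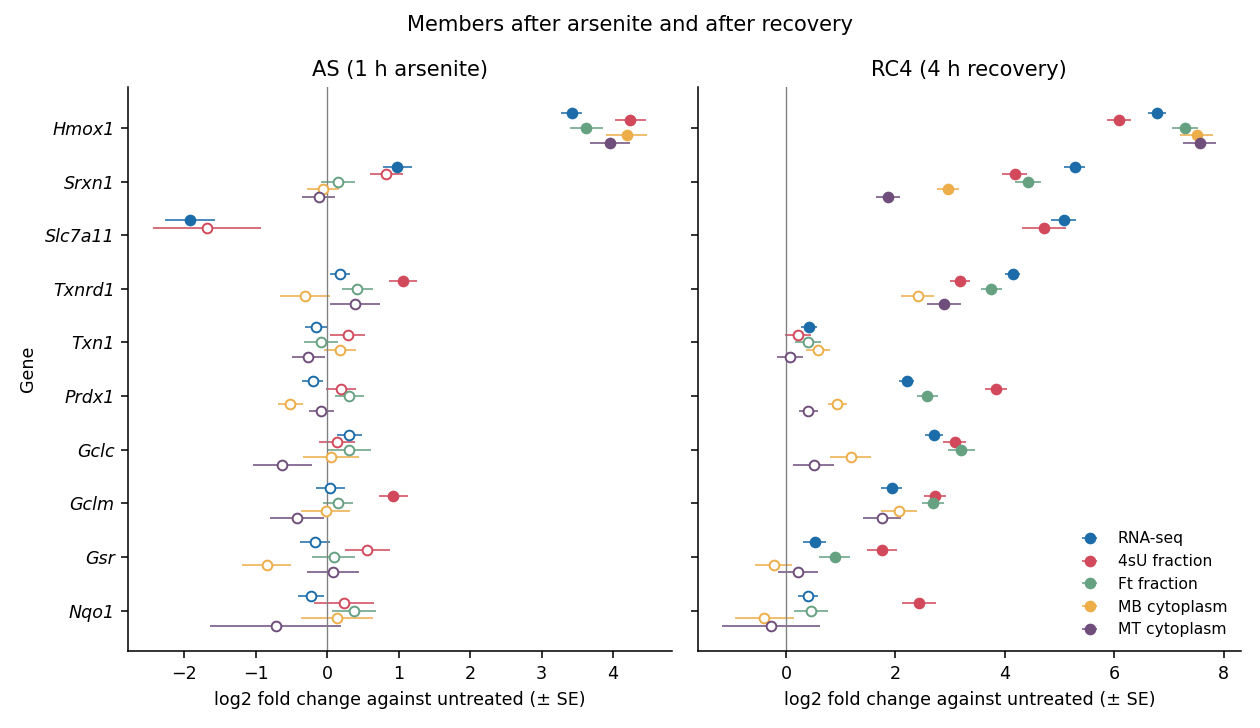
Log2 fold change (± SE) of each member against untreated cells after 1 h of arsenite (left) and after 4 h of recovery (right) in RNA-seq, the 4sU and Ft fractions of NIH3T3 cells and the cytoplasm of C2C12 myoblasts (MB) and myotubes (MT). Filled points passed an adjusted p of 0.05, and Slc7a11 is shown only for RNA-seq and 4sU because it was barely listed in the other untreated libraries. Hmox1 lies between 3.42 and 4.24 at AS and between 6.09 and 7.57 at RC4, while Txn1 stays within 0.59 of 0 in each experiment.

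Hmox1, heme oxygenase 1, breaks heme down to biliverdin, iron and carbon monoxide. It lies on mm9 chr8:77617490-77624495, plus strand, and 99.4% of its PAS reads fell on 1 site in its last exon, shown here with its AATAAA signal in capitals, since Hmox1 had in effect a single 3′ end.
Hmox1 PAS, mm9 chr8:77624460-77624489, plus strand: gaaatAATAAAtggcattatctaacagtca
Its RNA-seq level was 122 normalized RPM in NT at 0 h, 85.5 in NT at 4 h, 1109 in AS and 11440 in RC4. Among newly made transcripts (4sU) it was at 52.7 and 46.4 normalized RPM in NT, 935 in AS and 3363 in RC4. In the flow-through it was 21.1 and 24.6 in NT, 284 in AS and 3610 in RC4. In each of these the AS library was above both NT libraries and RC4 above AS. The log2 fold change at AS was 3.42 ± 0.15 (SE) in RNA-seq (edgeR adjusted p = 1.671e-18), 4.24 ± 0.21 in 4sU (edgeR adjusted p = 1.198e-05) and 3.63 ± 0.22 in Ft (edgeR adjusted p = 9.733e-05). At RC4 it was 6.79 ± 0.17 in RNA-seq, 6.09 ± 0.22 in 4sU and 7.29 ± 0.24 in Ft, with edgeR adjusted p of 9.995e-27, 1.586e-06 and 5.412e-07.

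Slc7a11 encodes xCT, the light chain of the antiporter that brings in cystine for glutathione synthesis, and it lies on chr3:50168858-50247535, minus strand. Its RNA-seq level was 3.95 and 2.82 normalized RPM in NT, 0.897 in AS and 115 in RC4. The AS library was below both NT libraries, with a log2 fold change of -1.91 ± 0.35 (edgeR adjusted p = 0.0003104), and RC4 was far above them, at 5.08 ± 0.23 (edgeR adjusted p = 3.589e-19). Its 4sU levels were 18.0 and 10.0 normalized RPM in NT, 4.15 in AS and 354 in RC4. The same order was seen there, but the lower AS value rested on 8 reads and did not pass the test, with a log2 fold change of -1.68 ± 0.75 (edgeR adjusted p = 0.2681). The rise at RC4 did pass, at 4.72 ± 0.40 (edgeR adjusted p = 0.0001191). In the Ft fraction Slc7a11 had 6 reads in NT at 0 h, was not listed in NT at 4 h or in AS, and had 334 reads in RC4, so no fold is given. Slc7a11 was the only member called lower at AS in RNA-seq.

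Gclc and Gclm are the catalytic and modifier subunits of glutamate cysteine ligase, the rate-limiting enzyme of glutathione synthesis. Gclc (chr9:77602342-77642292, plus strand) had RNA-seq levels of 37.0 and 29.7 normalized RPM in NT, 41.5 in AS and 218 in RC4. Gclm (chr3:121948475-121972902, plus strand) had 18.8 and 20.7 in NT, 20.4 in AS and 75.2 in RC4. For both subunits only the RC4 library stood above the NT libraries by more than their spread in the test. The log2 fold change at RC4 was 2.71 ± 0.16 for Gclc (edgeR adjusted p = 1.117e-15) and 1.93 ± 0.19 for Gclm (edgeR adjusted p = 3.955e-10). Gclc in the 4sU fraction went from 59.1 and 68.8 normalized RPM in NT to 70.6 in AS and 544 in RC4. Gclm there went from 191 and 189 in NT to 361 in AS and 1253 in RC4. The modifier subunit thus already lay above both NT libraries in newly made RNA at AS, by 0.93 ± 0.21 on the log2 scale (edgeR adjusted p = 0.04493), whereas Gclc had 0.14 ± 0.25 (edgeR adjusted p = 0.8185). The call for Gclm was lost when any NT library of either fraction was left out. It was also lost with scaling by library totals, where the log2 fold change was 0.69. At RC4 the 4sU log2 fold changes were 3.08 ± 0.22 for Gclc and 2.72 ± 0.20 for Gclm, with edgeR adjusted p of 5.418e-05 and 6.21e-05, and those in Ft were 3.20 ± 0.24 and 2.68 ± 0.20, with edgeR adjusted p of 5.167e-05 and 4.647e-05.

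Gsr, glutathione reductase, returns oxidized glutathione to its reduced form with NADPH, and it lies on chr8:34762995-34808635, plus strand. Its RNA-seq levels were 25.7 and 27.8 normalized RPM in NT, 23.8 in AS and 38.5 in RC4. Its 4sU levels were 22.0 and 20.3 in NT, 31.1 in AS and 71.2 in RC4. RC4 was the highest library in both. The log2 fold change at RC4 was 0.53 ± 0.21 in RNA-seq (edgeR adjusted p = 0.03072), 1.76 ± 0.27 in 4sU (edgeR adjusted p = 0.002117) and 0.89 ± 0.28 in Ft (edgeR adjusted p = 0.0483). The calls of Gsr in RNA-seq and Ft depended on the scaling. When libraries were scaled by their total reads instead of the median ratio, the median log2 fold change of all genes at RC4 moved from -0.014 to -0.827, Gsr turned to -0.29 without passing the test, and Nqo1 and Txn1 turned to -0.41 and -0.39 and passed it as lower. With that scaling 1059 genes were higher and 6609 lower, against 3040 and 2640 with the median ratio. In Ft, library totals gave Gsr 0.46 (edgeR adjusted p = 0.2397), with a median of all genes of -0.439, and 7 members were called instead of 8, as with TMM and with DESeq2. All-gene calls shifted there from 1462 higher and 974 lower to 876 and 2321, and in 4sU from 1356 and 1173 to 913 and 1888 at RC4 and from 224 and 126 to 150 and 310 at AS.

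Srxn1, sulfiredoxin, repairs overoxidized peroxiredoxins, and it lies on chr2:151931252-151937112, plus strand. Its RNA-seq levels were 7.03 and 5.28 normalized RPM in NT, 12.2 in AS and 240 in RC4. Srxn1 in 4sU had 295 and 222 normalized RPM in NT, 457 in AS and 4688 in RC4, and in the Ft fraction 323 and 300 in NT, 346 in AS and 6691 in RC4. RC4 exceeded every other library in all 3, and AS exceeded both NT libraries in each. The AS difference passed the test in RNA-seq, with a log2 fold change of 0.98 ± 0.20 (edgeR adjusted p = 0.001376), and not in 4sU, with 0.82 ± 0.23 (edgeR adjusted p = 0.09537). At RC4 it was 5.28 ± 0.19 in RNA-seq, 4.18 ± 0.23 in 4sU and 4.43 ± 0.23 in Ft, with edgeR adjusted p of 5.824e-22, 1.677e-05 and 7.795e-06.

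Txnrd1, thioredoxin reductase 1, keeps thioredoxin reduced with NADPH, and it lies on chr10:82296696-82360469, plus strand. Its RNA-seq levels were 231 and 249 normalized RPM in NT, 272 in AS and 4251 in RC4. In newly made RNA they were 92.7 and 92.6 in NT, 194 in AS and 842 in RC4. The AS library was above both NT libraries, with a log2 fold change of 1.07 ± 0.20 in 4sU (edgeR adjusted p = 0.02354), a call that was lost without either 4sU NT library, and of 0.18 ± 0.14 in RNA-seq (edgeR adjusted p = 0.585). At RC4 Txnrd1 had 4.15 ± 0.14 in RNA-seq, 3.19 ± 0.19 in 4sU and 3.76 ± 0.20 in Ft, with edgeR adjusted p of 6.847e-23, 1.913e-05 and 7.795e-06.

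Prdx1, peroxiredoxin 1, reduces peroxides and is itself reduced by thioredoxin, the product of Txn1. Prdx1 (chr4:116358149-116373427, plus strand) had RNA-seq levels of 112 and 125 normalized RPM in NT, 103 in AS and 545 in RC4. In the 4sU fraction it had 430 and 459 in NT, 508 in AS and 6379 in RC4, and in the Ft fraction 1574 and 1637 in NT, 1992 in AS and 9638 in RC4. RC4 was above all other libraries in each, and its log2 fold change was 2.21 ± 0.14 in RNA-seq, 3.84 ± 0.20 in 4sU and 2.59 ± 0.20 in Ft, with edgeR adjusted p of 9.355e-15, 1.245e-05 and 5.167e-05. Txn1 (chr4:57956245-57969283, minus strand) had 312 and 252 normalized RPM in NT, 253 in AS and 378 in RC4 in RNA-seq. Txn1 in 4sU had 177 and 128 in NT, 185 in AS and 176 in RC4. Its RC4 library lay between the NT libraries there, with a log2 fold change of 0.21 ± 0.24 (edgeR adjusted p = 0.5586). The RNA-seq change of Txn1 at RC4, 0.42 ± 0.15 (edgeR adjusted p = 0.01746), changed sign with the scaling as given above, and in Ft it was 0.41 ± 0.23 (edgeR adjusted p = 0.2394). Within the thioredoxin cycle the reductase, the peroxiredoxin and its repair enzyme thus had log2 fold changes of 2.21 to 5.28 at RC4 in RNA-seq, against 0.42 for Txn1.

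Nqo1, a quinone reductase, lies on chr8:109912125-109927106, minus strand. Its RNA-seq levels were 48.4 and 51.5 normalized RPM in NT, 42.9 in AS and 66.01 in RC4. In the 4sU fraction it had 12.4 and 10.0 in NT, 13.0 in AS and 59.6 in RC4, and in the Ft fraction 46.0 and 30.9 in NT, 49.6 in AS and 52.6 in RC4. Newly made Nqo1 RNA at RC4 was above the other libraries, with a log2 fold change of 2.43 ± 0.32 (edgeR adjusted p = 0.0008877), while the pre-existing RNA had 0.46 ± 0.31 (edgeR adjusted p = 0.3217) and RNA-seq 0.40 ± 0.18 (edgeR adjusted p = 0.05634). The difference between the fractions was not tested.

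The Ft to 4sU ratio of each gene, both scaled in 1 fit, sets its unlabelled RNA against its labelled RNA. These are single libraries and no test was made. For Hmox1 the ratio was 0.401 in NT at 0 h, 0.531 in NT at 4 h, 0.304 in AS and 1.07 in RC4. For Prdx1 it was 3.66, 3.57, 3.92 and 1.51, and for Nqo1 3.71, 3.08, 3.82 and 0.882, in the same order. The Hmox1 ratio was thus higher at RC4 than in the other 3 conditions, and the Prdx1 and Nqo1 ratios were lower. Gclc kept a ratio between 0.249 and 0.395 in all 4 conditions, and Txn1 one between 1.84 and 2.72.

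The time course in total RNA followed the members for 24 h. Hmox1 in replicate 4 had 202 normalized RPM in NT, 710 in AS, 10570 in RC4, 872 in RC8, 154 in RC12 and 102 in RC24. In replicates 1 and 2 it rose from 199 to 888 and from 51.3 to 583 at AS, and all 3 AS libraries were above all 3 NT libraries. As ratios to the NT library of replicate 4, with 95% intervals that cover counting error only, Hmox1 stood at 52.3 (46.5 to 59.0) in RC4, 4.32 (3.79 to 4.92) in RC8, 0.760 (0.640 to 0.902) in RC12 and 0.504 (0.398 to 0.633) in RC24. The Hmox1 peak was at RC4. Its RC12 and RC24 libraries were below the NT library of replicate 4 but within the range of the 3 NT libraries, 51.3 to 202. A fit with the replicate number as a block gave log2 fold changes of -0.08 in RC12 and -0.67 in RC24.

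Other members returned at different times. Srxn1 had 117 normalized RPM in NT and 132 in AS of replicate 4, then 1305 in RC4, 331 in RC8, 125 in RC12 and 91.0 in RC24. Txnrd1 had 40.0 and 62.2, then 270, 113, 41.3 and 44.5. Both peaked at RC4 and stood at 1.07 and 1.03 times NT in RC12. Slc7a11 was not listed in NT and AS of replicate 4, reached 189 normalized RPM (281 reads) in RC4 and 45.5 (72 reads) in RC8, had 5 reads in RC12 and was not listed in RC24. Gclm had 413 and 364, then 1385, 895, 470 and 249, so it was still at 2.17 times NT (1.97 to 2.39) in RC8. Gclc had 51.4 and 49.2, then 167, 46.8, 34.4 and 61.3.

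In the single RC12 library, Prdx1 and Gsr were still above the NT library of replicate 4. With the replicate number as a block their log2 fold changes in RC12 were 1.02 ± 0.29 and 0.99 ± 0.38, and neither passed the test. Prdx1 had 3607 normalized RPM in NT, 4026 in AS, 9236 in RC4, 7986 in RC8, 8385 in RC12 and 4243 in RC24. Its ratio to NT was 2.56 (2.48 to 2.65) in RC4 and still 2.33 in RC12. Gsr had 60.0 and 73.3, then 95.01, 94.2, 115 and 59.3, with its highest ratio, 1.91 (1.47 to 2.5), in RC12. In RC24 Prdx1 stood at 1.18 (1.13 to 1.23), Gsr at 0.989 (0.698 to 1.39) and Nqo1 at 1.47 (1.04 to 2.07) times NT. Nqo1 lay at 1.18 to 1.50 times NT and Txn1 at 1.08 to 1.40 times NT through the 4 recovery libraries.

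**Figure D2:**
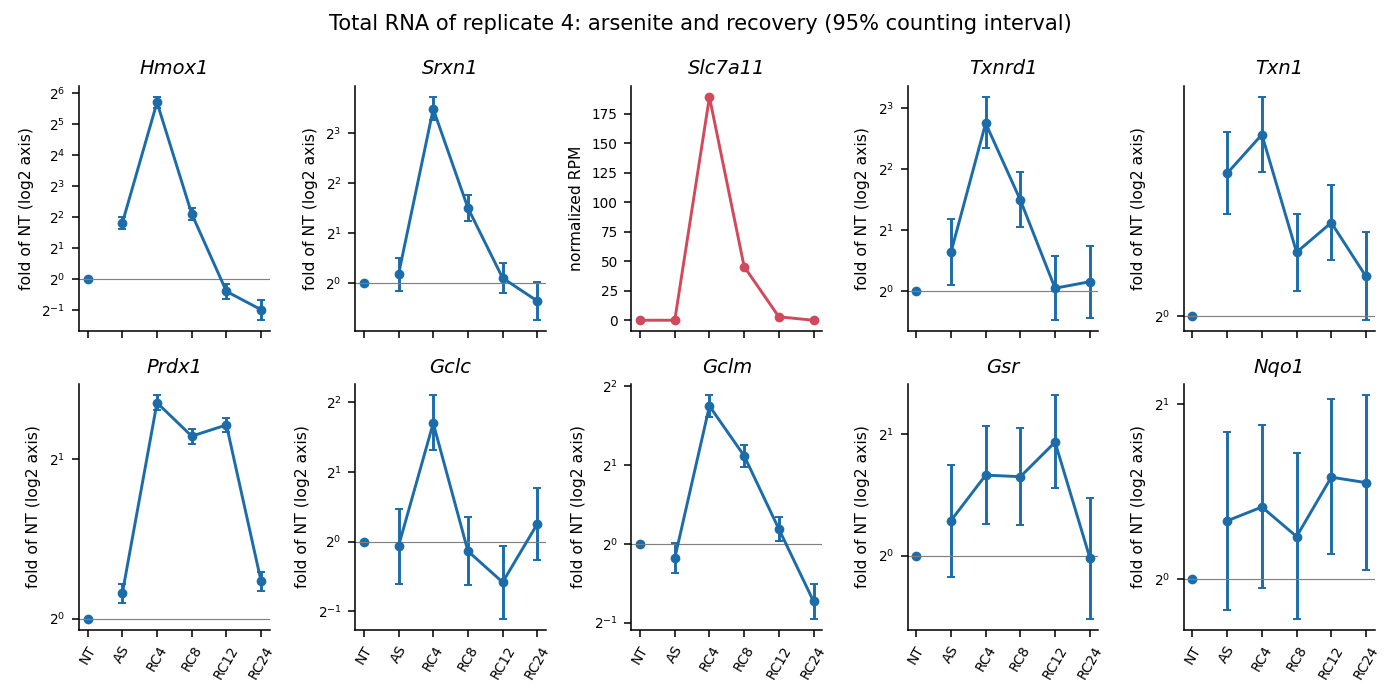
Ratio of each member to the NT library in total RNA of replicate 4 (log2 axis) after arsenite (AS) and 4 to 24 h of recovery, with 95% counting intervals and 1 library a point. Slc7a11, which was not listed in NT, is shown as normalized RPM. Hmox1 peaks at 52.3 times NT in RC4 and is at 0.504 in RC24, while Prdx1 holds between 2.21 and 2.56 from RC4 to RC12.

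The replicates of total RNA stood far apart, and this decided the tests. The NT level of Txnrd1 was 657, 89.4 and 40.0 normalized RPM in replicates 1, 2 and 4, and that of Gsr 6.82, 4.61 and 60.0. NT and AS libraries of 1 number shared these levels, with 659, 137 and 62.2 for Txnrd1 and 16.4, 3.59 and 73.3 for Gsr in AS. Without a replicate term edgeR called no member at AS or at any recovery time (0 of 10, with 1 member at an unadjusted p under 0.05 at AS, 4 at RC4, 2 at RC8 and 0 at RC12 and RC24), and it called 0% of all 10246 genes. DESeq2 called 0 members at AS, where it called 0% of all genes, and 1 at RC4, where it called 0.234%. With the replicate number as a block, edgeR called 6 members higher at RC4, where 3.53% of all genes were called higher, and 0 at AS, where Hmox1 had a log2 fold change of 2.48 ± 0.31 (edgeR adjusted p = 0.0697). The blocked values at RC4 were 6.03 ± 0.47 for Hmox1 (edgeR adjusted p = 0.003058), 3.50 ± 0.25 for Srxn1 (edgeR adjusted p = 0.002587), 2.62 for Txnrd1 (edgeR adjusted p = 0.008289), 1.88 for Gclm (edgeR adjusted p = 0.01111) and 1.84 ± 0.27 for Gclc (edgeR adjusted p = 0.01431). The sixth was Slc7a11, for which no fold is given. Prdx1 missed the threshold, at 1.16 (edgeR adjusted p = 0.06382).

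In the cytoplasmic input of the TIA1 experiment Hmox1 had 60.7 and 145 normalized RPM in NT and 412 and 722 in AS (replicates 1 and 2). Both AS libraries were above both NT libraries. Unblocked, 0 of the 9 members tested were called by edgeR (1 at an unadjusted p under 0.05, and 1 by DESeq2, against 0.01% of all genes by edgeR and 0.19% by DESeq2). With the replicate block Hmox1 passed at a log2 fold change of 2.53 ± 0.33 (edgeR adjusted p = 0.007331), where 0.14% of all genes were called higher. Slc7a11 was too low to be tested there.

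Txn1 was recovered less in TIA1 than in input. Its input level was 77.4 and 141 normalized RPM in NT and 77.2 and 167 in AS, and its level in the TIA1 libraries 17.9 and 41.5 in NT and 13.8 and 41.3 in AS. All 4 TIA1 libraries were below all 4 input libraries. Gclc had 92.1 and 118 in the NT input against 102 and 291 in TIA1, and 51.4 and 93.1 in the AS input against 143 and 199 in TIA1. For Gclc each TIA1 library was above the input of its number. Without the replicate term edgeR called 0 of 9 members in either condition (2 at an unadjusted p under 0.05 in each, and 0 and 1 by DESeq2, in NT and AS), while 3.49% of all genes were called in NT (1.79% higher and 1.69% lower) and 1.15% in AS by edgeR, and 12.8% and 11% by DESeq2. With the replicate block Txn1 was lower in TIA1 by -1.94 ± 0.34 on the log2 scale in NT (edgeR adjusted p = 0.002714) and by -2.23 ± 0.34 in AS (edgeR adjusted p = 0.001842), and Gclc was higher in AS by 1.29 ± 0.34 (edgeR adjusted p = 0.0229). The blocked fit called 8.72% of all genes higher and 9.56% lower in NT, and 7.61% and 8.38% in AS. No member was called for a change of TIA1 enrichment between NT and AS (edgeR, 0 of 9, 0 at an unadjusted p under 0.05, and 0 by DESeq2). Nqo1 rested on few reads, with 6 to 16 in the input libraries and 17 in each of 2 TIA1 libraries, and it was not listed in the other 2.

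C2C12 cells differed in the members before any stress. In untreated total RNA 8 of the 10 members were lower in MT than in MB and 2 were higher, where 28.3% of 10710 genes were called lower and 31.4% higher. Nqo1 had 35.5 and 36.6 normalized RPM in MB, was not listed in MT replicate 2 and had 2.83 in MT replicate 3. Srxn1 had 148 and 157 in MB and 20.4 and 27.3 in MT. Gclm had 344 and 327 in MB and 53.6 and 53.0 in MT. Neither MT library reached an MB library for these genes, and the log2 differences (MT minus MB) were -4.54 ± 0.44 for Nqo1 (edgeR adjusted p = 9.959e-07), -2.66 ± 0.15 for Srxn1 (edgeR adjusted p = 4.103e-09) and -2.65 ± 0.11 for Gclm (edgeR adjusted p = 2.096e-10). Gsr was lower by -2.62 ± 0.18, Txn1 by -1.09 ± 0.12, Gclc by -0.90 ± 0.15, Prdx1 by -0.60 ± 0.10 and Txnrd1 by -0.35 ± 0.14, the last with the weakest edgeR adjusted p, 0.04152.

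Slc7a11 and Hmox1 went the other way in MT. Slc7a11 had 1.58 and 4.04 normalized RPM in MB and 33.5 and 33.2 in MT, a log2 difference of 3.49 ± 0.30 (edgeR adjusted p = 3.218e-07). Hmox1 had 15.8 and 18.7 in MB and 38.6 and 35.5 in MT, a log2 difference of 1.09 ± 0.18 (edgeR adjusted p = 0.0001558). The MT libraries were above the MB libraries for both genes. In bulk libraries fewer cells of a type and less RNA per cell cannot be told apart.

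**Figure D3:**
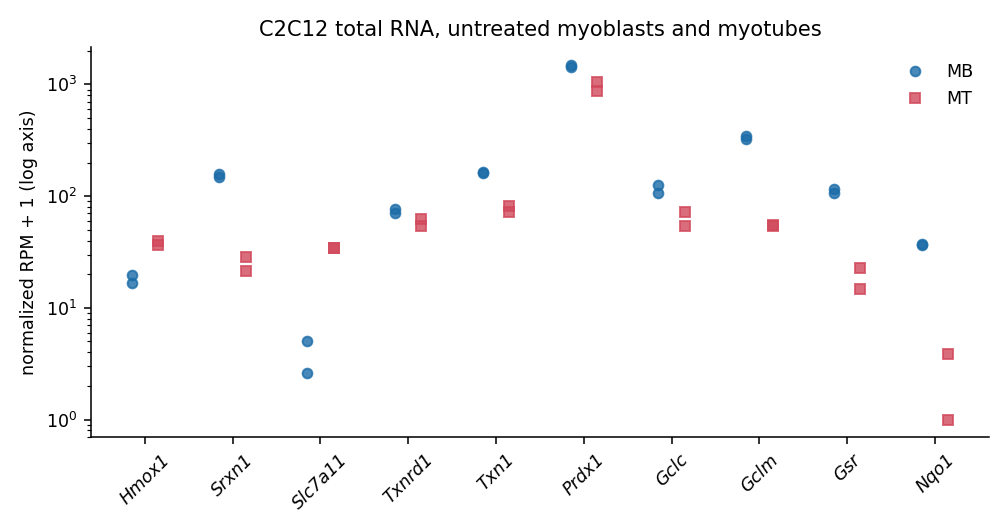
Normalized RPM plus 1 (log axis) of each member in untreated total RNA of C2C12 myoblasts (MB, circles) and myotubes (MT, squares), with 1 point a library and 2 libraries a group. The groups do not overlap for any member. Slc7a11 and Hmox1 are higher in MT, and Nqo1 shows the widest gap downward, from 35.5 and 36.6 to at most 2.83.

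Hmox1 reached nearly the same normalized cytoplasmic level in both C2C12 states after recovery, with 1 RC4 library each. The match depends on the scaling. Before it Hmox1 had 5874 of 2171653 reads in MB and 8886 of 2810736 in MT at RC4. In MB cytoplasm it had 16.5 and 24.3 normalized RPM in NT, 374 in AS and 3733 in RC4. In MT cytoplasm it had 22.7 and 16.8 in NT, 307 in AS and 3734 in RC4. AS was above NT and RC4 above AS in both. The log2 fold change of Hmox1 at AS was 4.19 ± 0.29 in MB (edgeR adjusted p = 0.02453, with 0.0584% of all genes called, 0.0487% higher and 0.00973% lower) and 3.96 ± 0.28 in MT (edgeR adjusted p = 0.03515, with 0.0389% called). At RC4 it was 7.51 ± 0.31 in MB (edgeR adjusted p = 0.003459) and 7.57 ± 0.30 in MT (edgeR adjusted p = 0.001668). Without either NT library of MT no member was called in MB or MT.

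Srxn1, Txnrd1 and Gclm also had their highest C2C12 levels at RC4. Srxn1 had 122 and 113 normalized RPM in NT, 112 in AS and 915 in RC4 of MB, and 54.9 and 47.3, 47.0 and 186 in MT. Txnrd1 had 30.5 and 44.3, 30.2 and 199 in MB, and 16.8 and 22.5, 26.0 and 147 in MT. Gclm had 248 and 258, 250 and 1066 in MB, and 49.0 and 88.2, 51.2 and 232 in MT. For all 3 genes RC4 was above both NT libraries in each cell state. Srxn1 was called at RC4 in MB, at 2.96 ± 0.21 (edgeR adjusted p = 0.009217), and in MT, at 1.87 ± 0.21 (edgeR adjusted p = 0.03231). Txnrd1 passed in MT, at 2.89 ± 0.31 (edgeR adjusted p = 0.029), and not in MB, at 2.41 ± 0.31 (edgeR adjusted p = 0.05229). Gclm had 2.07 ± 0.33 in MB and 1.75 ± 0.34 in MT (edgeR adjusted p of 0.06302 and 0.1049). In all, 2 members were called higher at RC4 in MB against 0.458% of genes and 3 in MT against 0.827%, and none was lower, against 0.0292% and 0.127%. Slc7a11 was not listed in the NT libraries of either state and had 50 reads in MB and 85 in MT at RC4.

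The response of MT was set against that of MB directly. At RC4 the difference of responses for Srxn1 was -1.10 on the log2 scale (MT minus MB, edgeR adjusted p = 0.5436), and it was the only member under an unadjusted p of 0.05. No member was called by edgeR or DESeq2 for a difference at AS or RC4, and at AS none was under an unadjusted p of 0.05. Nqo1 and Gsr had 35.0 and 88.3 normalized RPM in RC4 of MB cytoplasm against 30.5 and 61.2, and 79.5 and 126, in NT. Both had been called higher in newly made NIH3T3 RNA, but cytoplasmic RNA without labelling is an unlike measure. In RNA-seq and Ft of NIH3T3 Nqo1 was not called, and the Gsr calls depended on the scaling.

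Most members had more than 1 PAS, and the 2 with the most reads in the 3′UTR are called proximal and distal. The sequences around the PASs of Gclc, Gclm, Srxn1 and Txnrd1 are shown because their shares of reads differed in recovery. Each is the 30 bases on mm9, plus strand, that end at the PAS, with AATAAA or ATTAAA, the polyadenylation signal, in capitals where it is present.
Gclc proximal, chr9:77642136-77642165: agccgcttcatcttaaagctttcaatacta
Gclc distal, chr9:77642263-77642292: agaaAATAAAaaatgggattcctattcaaa
Gclm proximal, chr3:121969826-121969855: gtaAATAAAattcattctttgatccacgaa
Gclm distal, chr3:121972462-121972491: ttaaagaATTAAAtcacttgtgcaattgtg
Srxn1 proximal, chr2:151936294-151936323: tgctggtATTAAAgaaggtgtgcactacta
Srxn1 distal, chr2:151937063-151937092: tctaaAATAAAagtgtatttaattaacaca
Txnrd1 proximal, chr10:82359323-82359352: tgactaaaatacactgtctgcttttactaa
Txnrd1 distal, chr10:82360442-82360471: aagatgttgatgcacacgcgtgccttctga
The Srxn1 and Gclc distal PASs carried AATAAA, the proximal PAS of Gclc carried neither hexamer, and in Gclm the order was reversed, with AATAAA at the proximal PAS. Both Txnrd1 windows lacked the 2 hexamers. The PASs lay 127 nt apart in Gclc, 769 in Srxn1, 1119 in Txnrd1 and 2636 in Gclm.

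At RC4 most members with a PAS pair had a larger share of reads at the proximal PAS than in NT, as did most genes. Whether site choice or decay of an isoform changed a share was not tested. The share of Gclc reads at the distal PAS was 77.0% and 81.7% in the NT libraries of the 4sU fraction, 62.5% in AS and 68.4% in RC4. In Ft it was 68.3% and 58.2%, 59.7% and 47.4%, in MB 79.5% and 55.4%, 66.4% and 42.6%, and in MT 75.4% and 62.9%, 69.7% and 38.3%. RC4 was below both NT libraries in each of the 4 experiments. The relative expression difference (RED), the log2 ratio of distal to proximal reads in RC4 minus that in NT at 4 h, was -1.05 (95% counting interval -1.49 to -0.60) in 4sU and -1.45 (-2.14 to -0.75) in MT. The interval included 0 in Ft, at -0.62 (-1.45 to 0.20), in MB, at -0.74 (-1.54 to 0.06), and in total RNA, at -0.58 (-1.34 to 0.18).

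Gclm, Txnrd1 and Prdx1 shifted the same way. The distal share of Gclm fell from 5.38% and 6.09% in NT to 3.69% in RC4 of the 4sU fraction, and from 2.87% and 1.90% to 0.894% in Ft. That of Txnrd1 went from 97.0% and 97.7% to 93.1% in 4sU and from 93.4% and 93.0% to 80.0% in Ft. Prdx1 went from 20.1% and 14.3% to 9.90% in 4sU and from 7.50% and 5.63% to 5.31% in Ft. RC4 was below both NT libraries for all 3 genes in both fractions, but the interval included 0 for Prdx1 in Ft with NT at 4 h (-0.28 to 0.10) and for Gclm in 4sU with NT at 0 h (-1.19 to 0.05). Srxn1 did the opposite in the labelled and unlabelled fractions, where its distal share went from 80.4% and 82.8% to 86.0% in 4sU and from 78.7% and 82.3% to 87.0% in Ft, with a RED of 0.36 (0.10 to 0.61) and 0.52 (0.26 to 0.78). In total RNA its RED was -0.15 (-0.66 to 0.37). In MB the Srxn1 share was 77.3% and 70.5% in NT and 67.7% in RC4, a RED of -0.19 (-0.70 to 0.32), and in MT it was 78.3% and 79.0% in NT and 84.9% in RC4, a RED of 0.58 (-0.17 to 1.33). Over the 4 experiments 19 of 22 REDs of members were negative with the NT library of 4 h and 16 of 21 with that of 0 h. With NT at 4 h, the intervals of 11 lay below 0 and those of 2 above, and in total RNA none of 6 excluded 0. Over all genes with more than 5 reads of each PAS, the RED was negative for 73.6% of 4177 genes in 4sU, 74.1% of 3106 in Ft, 68.3% of 1955 in MB, 68.6% of 2826 in MT and 66.2% of 2175 in total RNA. No isoform test was run for these shares, and the intervals cover counting error only.

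**Figure D4:**
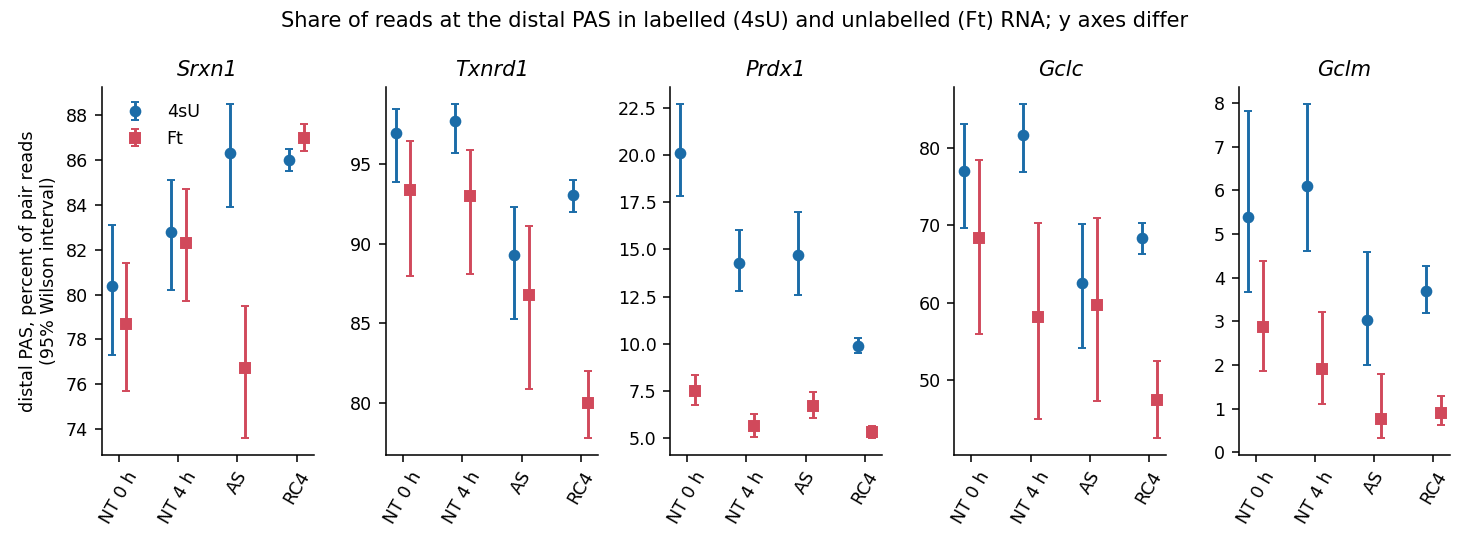
Share of the reads of the PAS pair that fell on the distal PAS (percent, with 95% Wilson intervals for counting error) in the 4sU (circles) and Ft (squares) fractions, 1 library a point, with a y axis of its own for each gene. RC4 lies below both NT libraries for Txnrd1, Prdx1, Gclc and Gclm, and above both for Srxn1.

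Isoform tests were run in 3 comparisons. In total RNA, AS against NT, 5 members were among the 1623 genes tested and none was called by edgeR (0% of all genes were called, none was under an unadjusted p of 0.05, and with the replicate block 0 members were called and Prdx1 alone, at 0.54, was under an unadjusted p of 0.05). The Prdx1 distal share was 41.3% and 54.0% in replicate 2 of total RNA and 1.20% to 4.34% in the other total RNA libraries, so its replicates stood apart. In MT against MB, Gclm was the 1 member of 4 called, against 13% of genes called longer and 5.12% called shorter. Its distal share was 8.94% and 6.31% in MT and 2.72% and 2.28% in MB, with a log2 change of 1.69 ± 0.39 (edgeR adjusted p = 0.001203). Both MT libraries were above both MB libraries, and the call was lost without MT replicate 2.

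In TIA1 against input the distal share of Srxn1 was 86.5% and 88.2% in the NT input and 94.7% and 97.3% in TIA1, and 82.0% and 93.4% in the AS input and 91.7% and 98.1% in TIA1. Each TIA1 library was above the input of its number and condition. Without the replicate term none of the 4 members tested was called (edgeR, 0 of 4, with 5.9% of genes called longer), and Srxn1 had a log2 change of 1.72 (edgeR adjusted p = 0.09588) and Gclm 1.22 ± 0.49 (edgeR adjusted p = 0.1815). With the replicate block both were called longer in TIA1, Srxn1 at 1.70 (edgeR adjusted p = 0.004829) and Gclm at 1.26 (edgeR adjusted p = 0.03366), where 15.6% of genes were. TIA1 is known to bind U-rich RNA. The motif TTTT occurred 1.04 times per 100 nt between the PASs of Srxn1 and 1.82 times in Gclm, against a median of 1.50 over the 1441 PAS pairs. It was denser in Prdx1 (2.28) and Gclc (3.15), the tested members that were not called. The log2 changes of Prdx1 and Gclc with the replicate block were 0.47 and -0.16. By number the order differed, with 48 in the 2636 nt of Gclm and 11 in the 483 nt of Prdx1. Srxn1 had 8 in 769 nt, and Gclc only 4 in 127 nt. Whether the motif bears on TIA1 enrichment was not tested.

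Txnrd1 also had reads at PASs upstream of its last exon. The main site was in no annotated exon and inside 4 annotated transcripts, and it is shown because its share of reads moved with the treatment. It carried neither hexamer, and 3 of the 10 bases after it were A.
Txnrd1 intronic, mm9 chr10:82330641-82330670, plus strand: aaactctagtaaactattttcaagaacaaa
In the 4sU fraction none of 232 Txnrd1 reads was listed upstream in NT at 0 h, and 8 of 397 (2.02%, Wilson 95% interval 1.02 to 3.93) were in NT at 4 h. In AS it was 75 of 374 (20.1%, 16.3 to 24.4), and in RC4 629 of 3206 (19.6%, 18.3 to 21.0). Upstream reads thus took about the same share of new Txnrd1 RNA in AS and RC4 and little or none in NT. Over all genes the upstream share was 6.40% and 6.66% in NT, 5.86% in AS and 8.40% in RC4 of the same fraction. In the Ft fraction Txnrd1 had no listed upstream reads in NT, 6 of 173 (3.47%) in AS and 72 of 1512 (4.76%, 3.8 to 5.95) in RC4. At RC4 upstream reads were 2.25% of Txnrd1 reads in total RNA, 2.24% in MB cytoplasm and 6.59% in MT cytoplasm.

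**Figure D5:**
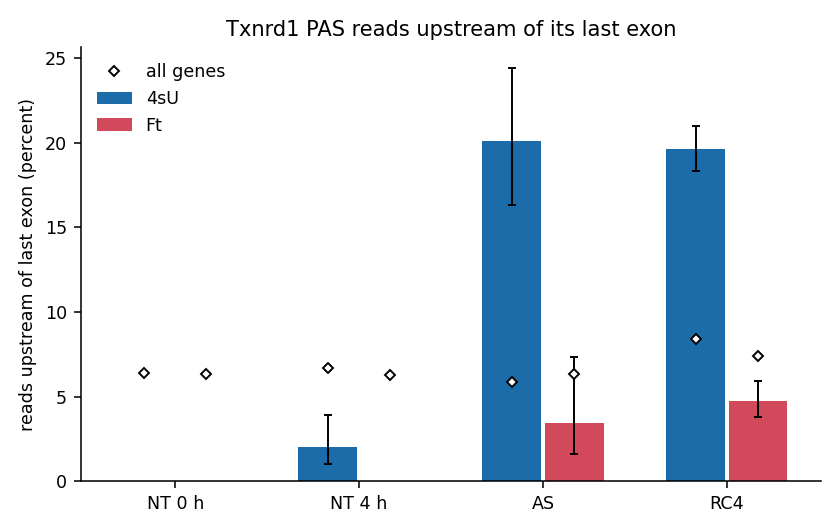
Percent of Txnrd1 PAS reads that lay upstream of its last exon in the 4sU and Ft fractions (bars from 0, with 95% Wilson intervals for counting error where reads were listed, 1 library a bar), beside the same percent over all genes (open diamonds). The 4sU bars reach 20.1% in AS and 19.6% in RC4, above the 5.86% and 8.40% of all genes, and the Ft bars stay at or below 4.76%.

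Slc7a11 had upstream reads as well, but too few reads in NT and AS to follow their share with the treatment. Its intronic PAS, on the minus strand and in no annotated exon, carried AATAAA.
Slc7a11 intronic, mm9 chr3:50208610-50208639, minus strand: ctcacctAATAAActtcttgtgggaaccaa
In the 4sU fraction 249 of 1347 Slc7a11 reads (18.5%, Wilson 95% interval 16.5 to 20.6) were upstream of the last exon in RC4, 152 of them at this site. All 8 of the Slc7a11 reads in AS were upstream at another site, and none of the 45 and 43 reads in NT was. In the Ft fraction none of 334 reads in RC4 was listed upstream. The upstream reads of Slc7a11 were therefore found in newly made RNA and in total RNA, where 15 of 281 were upstream in RC4, and not in the flow-through. Gsr also had upstream reads, though not in the 4sU or Ft fractions. In total RNA of replicate 1 they were 34 of 58 Gsr reads in AS and 8 of 17 in NT, and they are part of the Gsr levels given above. In the TIA1 experiment they were 28.9% and 35.1% in the AS input, 28.6% in NT input replicate 2, and 7.25% to 29.7% in the TIA1 libraries where listed.

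Other genes of the pathway were taken as 3 lists: 8 regulators (NRF2 itself, encoded by Nfe2l2, with Keap1, Bach1, Mafg, Maff, Mafk, Nfe2l1 and Cul3), 6 NADPH-supplying enzymes and 20 further targets. At AS in RNA-seq, the regulators Mafk (1.42) and Maff (1.54) and the target Osgin1 (1.29) were called higher and no gene of the lists lower, in log2 units. In the 4sU fraction at AS Maff (2.11), Mafk (0.94), Osgin1 (2.43) and Gpx1 (0.95) were called higher. At RC4 in RNA-seq 6 of 8 regulators were higher and 2 lower, 5 of 6 NADPH genes higher, and 11 of the 20 targets higher and 1 lower, against 28.5% higher and 24.7% lower of all genes. Among them Nfe2l2 was higher by 1.11, Bach1 by 2.39 and Keap1 lower by -1.23 on the log2 scale with edgeR adjusted p of 9.929e-08, 3.07e-15 and 0.0001635. The NADPH enzymes Me1 (1.66), Taldo1 (1.30) and Pgd (0.87) and the ferritin chains Ftl1 (1.92) and Fth1 (1.26) were also called higher. With library totals 4 regulators were higher and 2 lower, 2 NADPH genes higher and 1 lower, and 7 targets higher and 9 lower. Nfe2l2 (0.30) and Pgd (0.06) then no longer passed, while Bach1 (1.57), Me1 (0.85), Taldo1 (0.49), Ftl1 (1.10) and Fth1 (0.45) were still called higher and Keap1 (-2.05) lower. The small MAF genes Maff (3.08) and Mafk (2.61) had larger values than Bach1 with that scaling.

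At RC4 in the 4sU fraction, 3 of 8 regulators were higher, 4 of 6 NADPH genes were higher and 1 lower, and 9 of 18 targets tested were higher and 1 lower, against 12.9% higher and 11.1% lower of all genes. Bach1, the repressor of Hmox1, had 1.82 ± 0.20 (edgeR adjusted p = 0.0003725), whereas Nfe2l2 had 0.43 ± 0.22 in 4sU (edgeR adjusted p = 0.1772) and 1.12 ± 0.23 in Ft (edgeR adjusted p = 0.008397). With library totals the Ft value of Nfe2l2 was 0.68 and did not pass. Bach1 was also called higher at RC4 in MB, at 2.45 ± 0.27, and in MT, at 2.13 ± 0.24, with edgeR adjusted p of 0.03766 and 0.0314. In untreated MT against MB, 5 of 6 NADPH genes and 13 of 17 targets tested were lower and none was higher, while 4 regulators were higher and 3 lower.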

How the data were processed

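The authors trimmed 3′READS and RNA-seq reads with cutadapt, aligned them to mm9 with Bowtie2 and STAR, and deposited whole-number read counts per PAS or per gene (on coding sequences), without normalization. Here the 99725 PAS positions were joined into 83916 clusters (gaps up to 24 nt), and 61433 clusters, with 91.31% of reads, were assigned to genes of GENCODE vM1 on NCBIM37. The 886 ambiguous clusters and 1 duplicated, date-like symbol in RNA-seq were left out. Reads were summed per gene and fitted over all genes with a mean of at least 1 CPM with edgeR 4.0.16 (R 4.3.3), median-ratio normalization, quasi-likelihood tests and Benjamini-Hochberg adjustment at 0.05. Isoform tests used the 2 most abundant 3′UTR PASs within 10000 nt, with more than 5 reads each. Alternatives were TMM, library totals, other filters, DESeq2 1.42.0, PASs listed in every library, leaving out libraries and a replicate block.

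Same-numbered NT and AS libraries of total RNA deviated together (r of 0.910, 0.896 and 0.861 over 7587 genes), and input and TIA1 libraries of 1 number and condition come from 1 lysate (r of 0.431 in NT and 0.479 in AS over 7153 genes), so the numbers pair these samples. All same-numbered pairs of the TIA1 set had r of 0.355 to 0.616. The code was tested on simulated data: for RC4 against NT in RNA-seq, over 10677 genes, 88 of 97 genes changed 4-fold and 103 of 103 changed 8-fold were recovered. The members and lists were chosen with earlier results of these data known. All 10 members were named, and the plan was to name from each pathway list up to 4 called genes with the smallest p. Among the regulators at RC4 this order was not kept, and Nfe2l2, Keap1 and Bach1 were chosen after their values were seen. Processed copies of Prdx1 and Txn1 exist in the mouse genome, and shared reads were not examined.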

Additional observations from a re-analysis of the deposited data

How the results depend on the processing

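Under alternatives other than leaving out a library, 134 counts of called members stayed within 1.5 times the count reported, and 15 rose and 1 fell past it. These are counts and do not say which genes. For total RNA at RC4, 0 members became 1 with DESeq2 and 6 with the replicate block. For the cytoplasmic input at AS, 0 became 1 with no filter, with DESeq2 and with the replicate block. For TIA1 against input, 0 became 1 in NT with no filter and with the replicate block, and in AS 1 with no filter, 1 with DESeq2 and 2 with the replicate block. For MB at RC4, 2 became 5 with more than 5 reads in every library, 5 with PASs listed in every library and 6 with DESeq2, and for MT at RC4, 3 became 5 with DESeq2. Called isoforms went from 0 to 2 in TIA1 with the replicate block and from 1 to 0 in C2C12 total RNA with more than 20 reads. Library totals reversed Gsr (-0.29), Nqo1 (-0.41) and Txn1 (-0.39) at RC4 in RNA-seq, where the median of all genes moved with them. With the replicate block no other count of called members changed by over 1.5 times. In C2C12 total RNA, where the numbers are not shown to pair samples (r = 0.085), the block left 10 members called.

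Leaving out 1 library gave 0 to 1 called members in MB at AS, 0 to 6 in MB at RC4, 0 to 1 in MT at AS, 0 to 5 in MT at RC4, 1 to 2 in 4sU at AS, 7 to 8 in Ft at RC4, 9 in 4sU at RC4, 9 to 10 in MT against MB, and for isoforms 0 to 1 in TIA1 and 0 to 1 in C2C12. The 0 in C2C12 cytoplasm came without either MT NT library. Without either MB NT library there were 6 in MB and 5 in MT at RC4. In RNA-seq no residual degrees of freedom remained, so no test was made. No paired analysis was possible for RNA-seq, the 4sU set and the C2C12 cytoplasm because each has 1 replicate number. Except where stated, the cause was not tested. Depth limits Slc7a11, Nqo1 and the rarer PASs most, since sites under 5 reads are not listed.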

Other observations

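Outside the pathway lists, the 5 genes whose level over the 10 total RNA libraries was most like that of Hmox1 were Mt1 (Pearson r = 0.907 on log2 of RPM plus 1), Hspa1b (0.900), Zfand2a (0.885), Dnajb9 (0.884) and Bag3 (0.882). These are given as a description, since the 10 libraries share replicates and 1 time course. Mt1, a metallothionein that binds metals, had 456, 717 and 1080 RPM in NT, 1860, 2210 and 2270 in AS, and 9550 in RC4. Hspa1b, an inducible HSP70, had 160, 4.30 and 50.9 in NT, 656, 574 and 249 in AS, and 2430 in RC4. For both genes each AS library was above the NT library of its number, and RC4 was the highest library. Among the members the r with Hmox1 was 0.746 for Srxn1, 0.739 for Gclm, 0.699 for Slc7a11 and 0.657 for Gclc, and 0.221 to 0.396 for the others.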
